A study of Rattus norvegicus with 6 samples.

Results

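The genes described here encode centrosomal proteins and parts of the primary cilium. They were chosen by symbol alone: every row named Cep, Ift or Bbs followed by a number, plus Tctn1 to Tctn3, was a member. No measured value entered that rule, but the grouping was proposed with results of the same GSK101 against control comparison already known, so all counts over members are a description. The rule took 59 of the 20675 genes in the table, 34 of them CEP genes and 25 cilium transport genes, which comprised 14 Ift, 8 Bbs and 3 Tctn genes.

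A centrosome is a pair of centrioles in a cloud of pericentriolar material, and it organises the microtubules of the cell and the poles of the mitotic spindle. Many CEP proteins build, link or decorate centrioles, and dividing cells copy their centrioles once per cycle. In resting cells the older centriole docks at the surface and templates the primary cilium, an antenna that fibroblasts and cartilage cells use to sense chemical and mechanical signals. Intraflagellar transport (IFT) trains carry cargo along the cilium, with the IFT-B complex on the outward trip and IFT-A on the return. The BBSome, made of Bbs proteins, moves membrane proteins in and out, and tectonic proteins belong to the transition zone that gates the base.

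The cells were primary cells of the rat temporomandibular joint (TMJ) disc, the fibrous pad of the jaw joint. Libraries labelled GSK101 came from cells given the TRPV4 agonist GSK101 for 24 h, and libraries labelled Ctrl from cells given the solvent DMSO for 24 h. TRPV4 is a calcium-permeable cation channel that responds to osmotic and mechanical stimuli. Each group had 3 libraries of polyadenylated RNA, and no genetic alteration is named for either. Separate animals or cultures are not stated as the origin of the libraries, so p-values reflect only how much these libraries vary, and that variation can be technical.

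Values are RPKM, reads scaled to gene length and to the counted reads of the library, so levels of different genes are per length. The libraries held 43061102 to 45705238 counted reads, and 11352 to 11546 genes reached 1 RPKM. Of the counts from 1 to 10 reads, 71.3% to 74.7% were even, so read pairs may have entered as separate reads, and read numbers given below can exceed the number of fragments. Groups separated along principal component 1, with 55.5% of variance. Fibroblast markers were abundant in all libraries: the 9 genes of that list had sums of 12240 to 13440 RPKM (controls) and 11160 to 12620 RPKM (GSK101). Of 13 markers of multiciliated cells, which carry many motile cilia, Rsph1 and Ccdc39 reached 1 RPKM in any library. The sums of that list were 3.20 to 3.38 RPKM (controls) and 3.44 to 3.71 RPKM (GSK101), without overlap. Sums for 5 endothelial markers were 0.699 to 0.977 and 1.16 to 1.32 RPKM, for 6 leukocyte markers 6.99 to 10.2 and 7.80 to 11.1 RPKM, and for 5 epithelial markers 2.04 to 2.36 and 1.76 to 2.03 RPKM. The 6 muscle markers, chiefly Acta2, had sums of 5267 to 5468 RPKM and 2873 to 3137 RPKM. No marker of these lists was at 0 in every library, and their part in the results below was not tested. In bulk samples, fewer cells of a type and less RNA per cell cannot be told apart.

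Promoter sequences are shown first, because known cell cycle and cilium promoter motifs were searched in both sets. RefSeq promoters on the GRCr8 build, from 250 bases before to 50 bases after the annotated start, were matched by symbol for 51 of the 59 members. The letters TTTGAA are those of the cell cycle homology region (CHR), found in promoters of genes used in late cell cycle phases. GTTGCC is a half-site of the X-box read by RFX factors, which control many cilium genes. Both strands were searched, so TTCAAA and GGCAAC are the same motifs on the opposite strand, and the capitals mark them below. The stretches shown are upstream of the start and were picked after the search because they hold the motif; coordinates are GRCr8 with the gene's strand, and each sequence reads 5′ to 3′ along the gene.

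TTTGAA occurred upstream in 5 CEP genes that were called higher with GSK101, which lie at chr1:245245296-245245341 (+), chr3:164931082-164931127 (+), chr8:18971032-18971077 (-), chr8:55031419-55031456 (-) and chr18:63478359-63478391 (-) in the order printed. The first base of the motif stood at -47 in Cep55, -197 in Cep250, -213 in Cep57, -238 in Cep164 and -13 in Cep76, counted from the annotated start. Cep89 and Cep126, which were not called, also held it upstream and are not printed.
Cep55: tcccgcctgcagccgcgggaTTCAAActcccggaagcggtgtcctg
Cep250: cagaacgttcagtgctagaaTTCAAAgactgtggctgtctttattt
Cep57: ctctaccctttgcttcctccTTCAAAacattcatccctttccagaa
Cep164: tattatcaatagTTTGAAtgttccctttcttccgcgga
Cep76: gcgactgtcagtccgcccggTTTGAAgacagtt

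GTTGCC occurred upstream in 6 cilium genes, of which 4 are shown, from chr15:35688933-35688978 (+), chr3:74818581-74818626 (+), chr12:37668052-37668097 (-) and chr1:249374845-249374890 (-) in the order printed. The first base stood at -34 in Ift88, -39 in Bbs5, -42 in Tctn2 and -172 in Tctn3.
Ift88: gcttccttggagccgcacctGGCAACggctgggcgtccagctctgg
Bbs5: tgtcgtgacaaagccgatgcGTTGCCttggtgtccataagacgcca
Tctn2: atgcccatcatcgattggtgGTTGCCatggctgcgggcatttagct
Tctn3: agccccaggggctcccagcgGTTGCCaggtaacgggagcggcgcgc

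The shares that follow count gene symbols, and a gene with several promoters counts if any of them holds the motif. Over the whole window, TTTGAA was in 10 of the 30 matched CEP genes (33.3%) and in 0 of the 21 matched cilium genes. It was in 19.4% of all 27457 gene symbols with a promoter and in 12.3% of the 8489 that matched a tested gene. Among the CEP genes called higher it was in 8 of 16 (50.0%), and among the other CEP genes in 2 of 14 (14.3%). Upstream alone, these were 5 of 16 (31.2%) and 2 of 14 (14.3%), beside 10.9% of tested genes. GTTGCC was in 10 of 21 cilium genes (47.6%) and in 7 of 30 CEP genes (23.3%), beside 13.1% of all symbols. The cilium genes with it were Bbs1, Bbs2, Bbs5, Ift20, Ift27, Ift81, Ift88, Tctn1, Tctn2 and Tctn3. Upstream alone, GTTGCC was in 6 of 21 cilium genes (28.6%) and 4 of 30 CEP genes (13.3%), beside 10.8% of all symbols. The CCAAT box (CCAAT, bound by NF-Y) was in 15 of 30 CEP genes (50.0%) and 11 of 21 cilium genes (52.4%), beside 39.6% of all symbols. The E2F motif letters TTTNNCGC were in 4 of 30 (13.3%) and 2 of 21 (9.52%), beside 5.48% of all and 9.33% of tested genes. Matches can share bases (GTTGCC and CCAAT can share their C letters), and a gene with several motifs counts under each. A match is a description of the letters, not of binding, and no difference between these shares was tested.

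The full 250 bases upstream are given for Cep55, which rose 1.96-fold (chr1:245245113-245245362, +), and for Ift88, an IFT-B core gene that was not called (chr15:35688737-35688986, +), with TTTGAA or GTTGCC in capitals as above.
Cep55: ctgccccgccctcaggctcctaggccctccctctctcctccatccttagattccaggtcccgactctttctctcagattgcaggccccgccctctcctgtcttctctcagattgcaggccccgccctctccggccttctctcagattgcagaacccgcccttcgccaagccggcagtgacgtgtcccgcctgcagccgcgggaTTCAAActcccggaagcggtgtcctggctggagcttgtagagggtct
Ift88: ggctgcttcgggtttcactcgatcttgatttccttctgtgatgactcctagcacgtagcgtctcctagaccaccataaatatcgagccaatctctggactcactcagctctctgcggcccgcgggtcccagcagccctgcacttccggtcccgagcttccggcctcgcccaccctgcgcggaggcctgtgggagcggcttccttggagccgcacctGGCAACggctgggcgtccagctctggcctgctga

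The first comparison asked how the CEP genes stood after GSK101. Of 34 CEP genes, 18 rose, 1 fell and 15 did not pass the test, which was limma on log2(RPKM + 0.5) over 12801 genes with a Benjamini-Hochberg adjusted p under 0.05. The called increases spanned 1.22-fold to 2.07-fold, with a median of 1.44-fold. Cep295, Cep55, Cep128 and Cep350 had the highest ratios of mean RPKM. The 18 genes that rose were 52.9% of the tested CEP genes, beside 20.1% of all tested genes called higher. The single decrease was 2.94%, beside 11.9% of all tested genes called lower. All 3 GSK101 libraries lay above all 3 controls for 20 CEP genes, a pattern that 28.5% of tested genes showed, and below them for 1, a pattern of 18.7%. The median log2 change of the CEP genes was 0.28, from -0.15 to 0.94, beside 0.03 over all tested genes, and 29 of 34 were above 0.

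Of 23 tested cilium transport genes, 3 rose (Ift80, Ift74 and Bbs7), 2 fell (Ift43 and Tctn1) and 18 did not pass. That is 13.0% higher and 8.70% lower, against the same 20.1% and 11.9%. Their median log2 change was 0.03, from -0.30 to 0.41, and 13 of 23 were above 0. The GSK101 libraries all lay above the controls for 6 of these 23 genes and all below for 2, patterns of 28.5% and 18.7% of all tested genes. The difference between the CEP and the cilium genes was not itself tested. Over all 57 tested members 24 were called, beside 31.9% of all tested genes called in either direction.

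**Figure D1:**
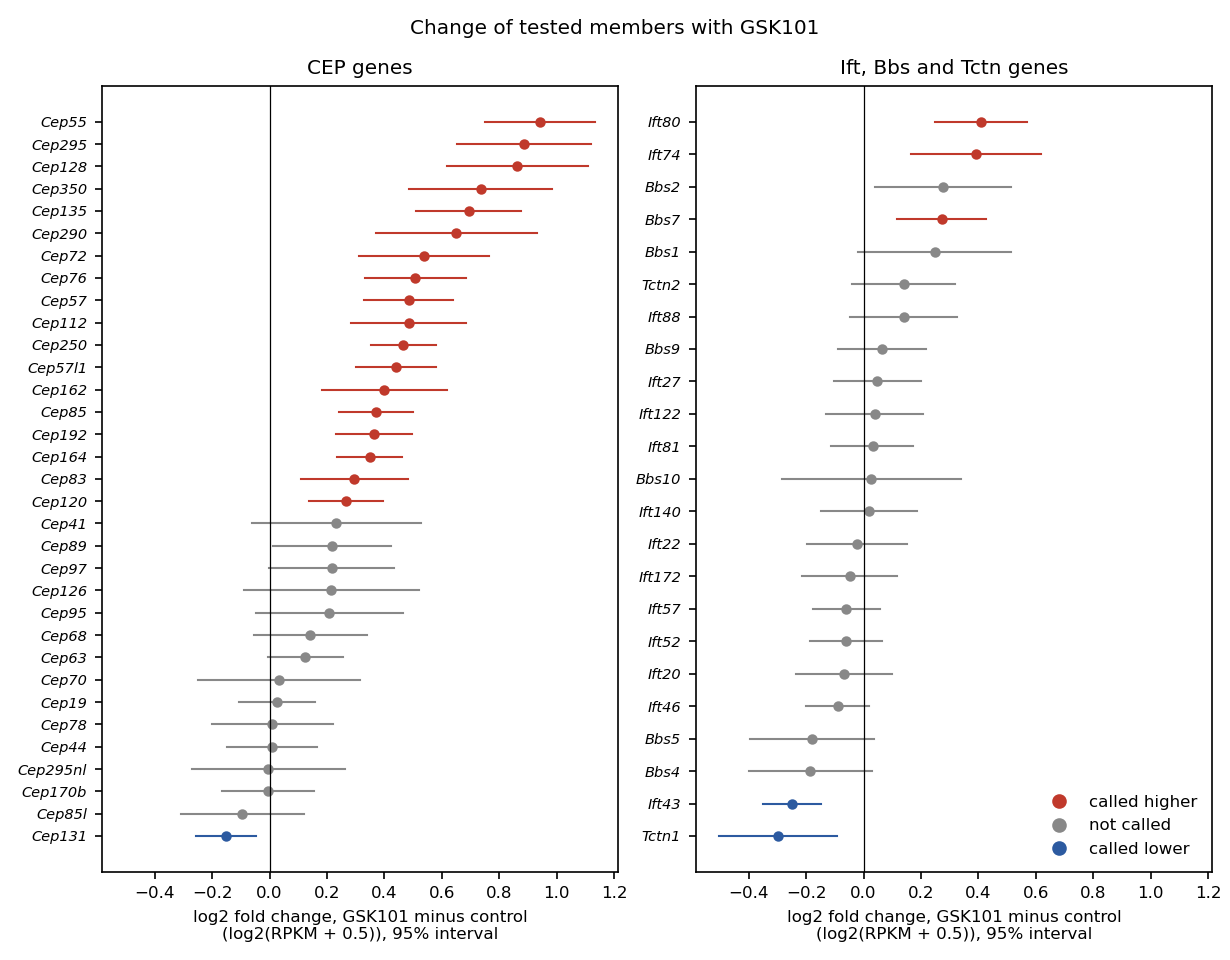
Log2 change with GSK101 against control on the log2(RPKM + 0.5) scale for tested members (all but 1), CEP genes in one panel and Ift, Bbs and Tctn genes in the other, with 95% confidence intervals from limma and called genes coloured. The CEP points reach from -0.15 to 0.94 with 18 called higher, while the cilium points stay between -0.30 and 0.41.

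Cep55 acts at the midbody, the bridge between daughter cells, and is needed for their final separation. Its level was 11.1, 13.1 and 13.2 RPKM in control libraries 1, 2 and 3 and 23.3, 23.2 and 26.6 RPKM in GSK101 libraries 1, 2 and 3. The lowest GSK101 library was well above the highest control. Mean levels were 12.5 ± 1.16 and 24.4 ± 1.96 RPKM (SD, n = 3), a 1.96-fold ratio from 1267 to 2857 reads, and the log2 difference was 0.94 (SE 0.08, limma adjusted p = 0.000272). In Rnor_6.0, the build of the deposited table, Cep55 spans chr1:256745288-256760796 on the + strand.

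Centriole assembly genes were the largest role list, with 8 tested members and a median log2 change of 0.37. Of these, 6 rose: Cep295, Cep135, Cep76, Cep85, Cep192 and Cep120, beside 20.1% of all tested genes called higher. The list's median length was 4571 bases, and 29.6% of tested genes of at least 2905 bases were called higher. With the gene length trend of each library removed, 4 were called higher (median 0.21), beside 15.8% of all tested genes. Cep295 helps new centrioles mature into centrosomes, and it had 1.58, 1.74 and 2.17 RPKM in the controls and 3.85, 3.76 and 3.73 RPKM with GSK101. The GSK101 values lay close together and every one was above the highest control. The ratio was 2.07-fold and the log2 difference 0.89 (SE 0.10, adjusted p = 0.000765), from 556 to 1317 reads. The gene lies at chr8:13871213-13909188 on the - strand of Rnor_6.0, where 124 of its 7679 exonic bases overlap Taf1d on the other strand.

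Cep135, a part of the centriole's cartwheel region, measured 2.31, 2.71 and 2.54 RPKM in the controls against 4.29, 4.18 and 4.69 RPKM. The groups were well apart, at 1.74-fold (log2 difference 0.69, SE 0.08, adjusted p = 0.000772). Cep76, which limits extra rounds of centriole copying, went from 1.83, 1.93 and 1.97 RPKM to 2.96, 3.07 and 2.73 RPKM. It was 1.53-fold higher (log2 difference 0.51, SE 0.08, adjusted p = 0.00236), again without overlap. For Cep192, which recruits pericentriolar material, the controls stood at 3.90, 3.93 and 3.91 RPKM and the GSK101 libraries at 5.33, 5.08 and 5.14 RPKM. This gave 1.32-fold (log2 difference 0.36, SE 0.06, adjusted p = 0.00279), but the call was lost when the gene length trend of each library was removed (adjusted p = 0.176). Cep85 and Cep120 had ratios of 1.31-fold and 1.22-fold.

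Cep63 and Cep97 of the same list did not pass. Cep63, which helps to start new centrioles, had the highest level of any CEP gene. It measured 44.6, 50.2 and 50.1 RPKM in the controls and 52.2, 51.2 and 54.5 RPKM with GSK101. The GSK101 libraries were all higher, though control 2 and GSK101 library 2 nearly met. The ratio was 1.09-fold with a 95% interval of the log2 difference from -0.01 to 0.25 (adjusted p = 0.136).

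Distal appendage genes make the spokes with which the older centriole attaches to the membrane at the start of cilium assembly. Cep164 and Cep83 of this list rose, while Cep89 had 1.16-fold (adjusted p = 0.0988). Cep164 stood at 34.3, 31.5 and 33.6 RPKM in the controls and 43.7, 41.0 and 42.3 RPKM with GSK101. All GSK101 values exceeded all controls, at 1.28-fold (log2 difference 0.35, SE 0.05, adjusted p = 0.00177). Cep83 was 1.23-fold higher (adjusted p = 0.0257), and its call was lost without GSK101 replicate 2 (0.0713) or 3 (0.0785). Both are also among the more abundant CEP genes, with control means of 33.1 and 34.6 RPKM.

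Among linker and scaffold genes, Cep350 and Cep250 rose and Cep68 did not pass (1.11-fold, adjusted p = 0.243). Cep350, a large protein that anchors microtubules at the centrosome, measured 1.90, 1.58 and 2.26 RPKM in the controls and 3.61, 3.46 and 3.41 RPKM with GSK101. The highest control stayed far below the lowest GSK101 library, and the ratio was 1.82-fold (log2 difference 0.73, SE 0.11, adjusted p = 0.00208). Cep250, also called C-Nap1, tethers the paired centrioles until mitosis, and it was 1.40-fold higher (adjusted p = 0.000561).

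The satellite and transition zone list split by direction. Cep290, a transition zone protein mutated in several ciliopathies, had 1.09, 1.49 and 1.66 RPKM in the controls and 2.47, 2.39 and 2.59 RPKM with GSK101. Control 1 was the lowest and no control reached a GSK101 library. It rose 1.75-fold (log2 difference 0.65, SE 0.12, adjusted p = 0.00565). Its exons, within chr7:40217269-40306327 on the + strand of Rnor_6.0, share 824 bases (9.10%) with RGD1307947 on the opposite strand. Use of strand in counting is not stated. Cep72, a satellite protein that helps recruit the microtubule-nucleating complex, had 2.66, 2.44 and 2.11 RPKM in the controls and 3.34, 3.98 and 3.80 RPKM with GSK101. No control reached a GSK101 library for Cep72 either, at 1.55-fold (log2 difference 0.54, SE 0.10, adjusted p = 0.00508).

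Cep131, a satellite protein with a role in cilium formation, was the CEP gene that fell. It had 17.7, 17.6 and 16.7 RPKM in the controls and 15.4, 15.7 and 15.6 RPKM with GSK101. Every GSK101 library was below every control, and control 3 was the nearest to them. The ratio was 0.898 and the log2 difference -0.15 (SE 0.05, adjusted p = 0.0367). This call was lost in 8 of 17 alternatives, among them the omission of control replicate 1 (0.0859) or 2 (0.0982) and of GSK101 replicate 1 (0.119), 2 (0.0879) or 3 (0.0805). With the gene length trend removed it was lower still, at -0.24 (adjusted p = 0.00606).

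The other 16 CEP genes belonged to no role list. Of them 5 rose (31.2%), beside 20.1% of all tested genes, with a list median of 0.12 on the log2 scale. With the gene length trend removed, 4 were called higher (median 0.08), beside 15.8% of all tested genes. Cep128, found at the subdistal appendages of the older centriole, led them with 7.87, 10.8 and 9.46 RPKM in the controls and 16.7, 16.6 and 18.7 RPKM with GSK101. The groups were far apart although the controls were spread, at 1.85-fold (log2 difference 0.86, SE 0.11, adjusted p = 0.00103). Cep57, which helps organise pericentriolar material, was 1.44-fold higher (adjusted p = 0.00165) and its paralog Cep57l1 1.37-fold (adjusted p = 0.00161). Cep112 had 1.45-fold (adjusted p = 0.00467) and Cep162, which binds centriole ends and promotes transition zone assembly, 1.36-fold (adjusted p = 0.0146). Cep19, Cep44, Cep78, Cep170b, Cep295nl and Cep70 had ratios from 0.996 to 1.05, and Cep85l had 0.929 (adjusted p = 0.478). How reads shared by paralogs such as Cep57 and Cep57l1 or Cep85 and Cep85l were divided is not stated.

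For the 15 CEP genes without a call, the 95% intervals of the log2 difference ran from -0.31 to 0.53 in all. In 9 of them the interval lay below the log2 of a 25% increase, taken without the 0.5 added to RPKM. In the other 6, which were Cep89, Cep95, Cep97, Cep68, Cep41 and Cep126, it reached that value, so such a change was not excluded by the interval. The added 0.5 shrinks changes of low genes, so a 25% increase was not excluded for every 1 of the 9 either. Cep70, with a control mean of 0.614 RPKM and an upper bound of 0.31, is a case. Cep126 was the lowest CEP gene, at 0.401, 0.522 and 0.317 RPKM in the controls and 0.564, 0.506 and 0.600 RPKM with GSK101, and it met the 0.5 RPKM filter mostly through the GSK101 libraries.

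**Figure D2:**
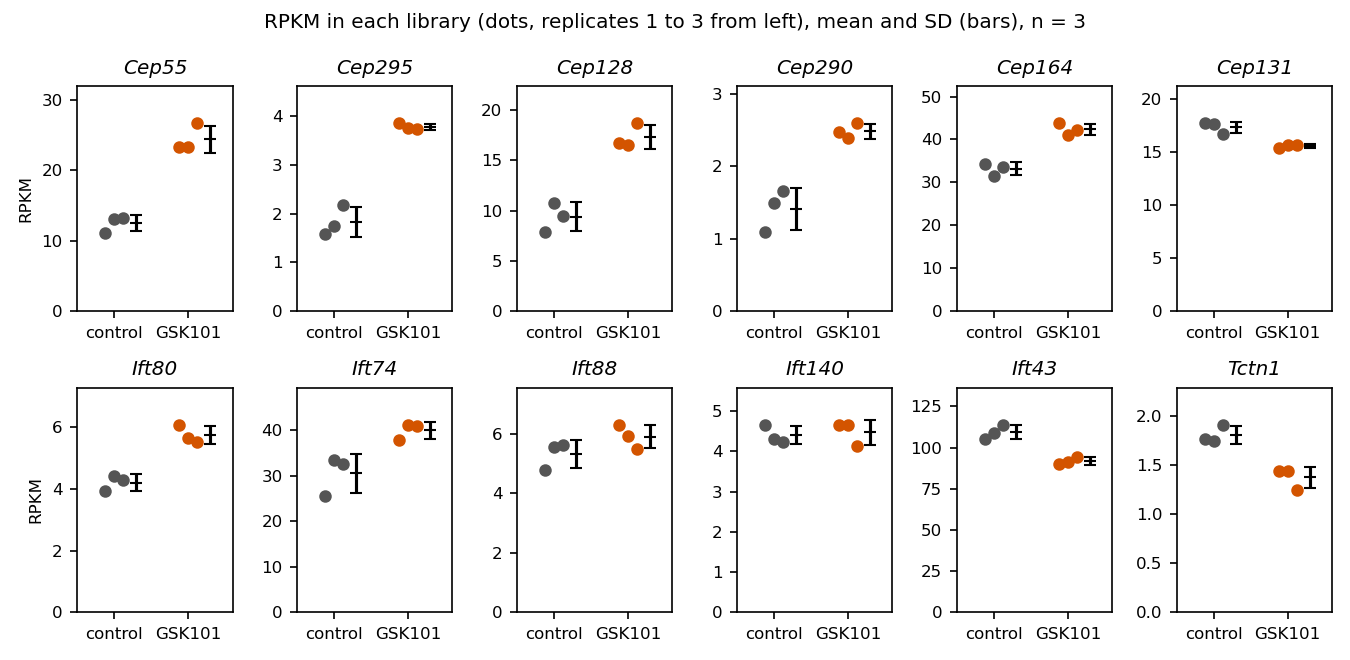
RPKM of selected members in each of the 6 libraries, control (grey) and GSK101 (orange) dots with the group mean and SD (n = 3) as bars, 1 panel per gene and each axis from 0. Cep55 and Cep295 show groups that lie well apart, while Ift140 and Ift88 overlap and Ift43 and Tctn1 are lower with GSK101.

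The 14 Ift genes encode part of the transport complexes, and further subunits under other symbols are described below. Their median log2 change was -0.00, with 2 of the 14 called higher (14.3%) and 1 lower (7.14%). Over all tested genes these shares were 20.1% and 11.9%. Both increases among the Ift genes were in IFT-B, where 11 members were tested. Ift80, an IFT-B subunit linked to skeletal ciliopathies, measured 3.92, 4.43 and 4.27 RPKM in the controls and 6.07, 5.65 and 5.53 RPKM with GSK101. No control reached a GSK101 library, and the gene rose 1.37-fold (log2 difference 0.41, SE 0.07, adjusted p = 0.00378). It lies at chr2:165505810-165600748 on the - strand of Rnor_6.0, and it kept its call in all 17 alternatives.

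Ift74, which with Ift81 binds tubulin, had 25.7, 33.5 and 32.6 RPKM in the controls and 37.9, 41.2 and 41.0 RPKM with GSK101. Library 1 was the lowest of both groups, and the groups did not overlap. It rose 1.31-fold (log2 difference 0.39, SE 0.10, adjusted p = 0.0187), a call lost without GSK101 replicate 2 (0.0566) or 3 (0.0544). Its partner Ift81 had 1.02-fold (95% interval of the log2 difference -0.11 to 0.17, adjusted p = 0.741).

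Ift88, an IFT-B core subunit without which cilia do not form, had 4.78, 5.57 and 5.64 RPKM in the controls and 6.30, 5.92 and 5.51 RPKM with GSK101. GSK101 library 3 lay below 2 of the controls. The ratio was 1.11-fold, and the log2 difference of 0.14 had a 95% interval from -0.05 to 0.33 (adjusted p = 0.23). The remaining IFT-B genes, Ift20, Ift22, Ift27, Ift46, Ift52, Ift57 and Ift172, had ratios from 0.938 to 1.04, and their groups overlapped.

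In IFT-A, which serves the return trip, 3 members were tested. Ift43 had the highest level of all cilium members, with 105, 109 and 114 RPKM in the controls and 89.8, 91.4 and 94.5 RPKM with GSK101. All GSK101 libraries were lower than all controls. It fell to 0.841 of the control mean (log2 difference -0.25, SE 0.04, adjusted p = 0.00455) and kept its call in all 17 alternatives. Ift43 is the shortest member, with 834 exonic bases within chr6:109939345-110016644 (+, Rnor_6.0).

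Ift140, the largest IFT-A subunit among the members, had 4.65, 4.31 and 4.24 RPKM in the controls and 4.65, 4.64 and 4.12 RPKM with GSK101. The groups covered each other, at 1.02-fold with an interval of the log2 difference from -0.15 to 0.19 (adjusted p = 0.863). Ift122 had 1.03-fold (adjusted p = 0.726).

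Of 7 tested Bbs genes, 1 rose (14.3%), beside 20.1% of all tested genes. Bbs7, a BBSome subunit, had 5.78, 6.09 and 5.94 RPKM in the controls and 7.52, 6.67 and 7.66 RPKM with GSK101. GSK101 library 2 was the nearest to the controls, and there was no overlap. The ratio was 1.23-fold (log2 difference 0.27, SE 0.07, adjusted p = 0.0172), and the call was lost without GSK101 replicate 1 (0.0654) or 3 (0.0568). Bbs2, which sits beside Bbs7 in the BBSome, had 1.86, 2.07 and 1.76 RPKM in the controls and 2.34, 2.14 and 2.75 RPKM with GSK101. It was 1.27-fold without overlap, but did not pass (95% interval 0.04 to 0.51, adjusted p = 0.0753).

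Bbs4, a BBSome subunit that binds pericentriolar satellites, had 3.79, 4.39 and 3.42 RPKM in the controls and 3.40, 3.13 and 3.45 RPKM with GSK101. Control 3 lay among the GSK101 libraries, and the ratio of 0.860 did not pass (95% interval -0.40 to 0.03, adjusted p = 0.17). Bbs5, which binds membrane lipids, had 7.93, 8.64 and 9.76 RPKM in the controls and 8.29, 6.88 and 7.91 RPKM with GSK101. Its groups also overlapped (ratio 0.876, 95% interval -0.40 to 0.04, adjusted p = 0.183). Bbs1 had 1.26-fold (adjusted p = 0.14) and Bbs9 1.05-fold (adjusted p = 0.509), with 791 bases (23.4%) of Bbs9 shared with AABR07069473.1 on the same strand. Bbs10, part of the chaperonin that assembles the BBSome, had 1.04-fold (adjusted p = 0.903).

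Among the tectonic genes, Tctn1 fell. It had 1.77, 1.75 and 1.91 RPKM in the controls and 1.44, 1.45 and 1.25 RPKM with GSK101. Each GSK101 library was below each control. The ratio was 0.762 and the log2 difference -0.30 (SE 0.09, adjusted p = 0.0353). The call did not hold in 9 of 17 alternatives, including the omission of any single library (adjusted p from 0.0646 to 0.0976), and 384 exonic bases (9.50%) overlap Hvcn1 on the opposite strand. Tctn2 was at 1.12-fold (adjusted p = 0.207).

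Tctn3 and Bbs12 were below the filter and were not tested. Tctn3 ranged from 0.0764 to 0.331 RPKM in the controls and from 0.104 to 0.126 RPKM with GSK101, on 6 to 27 reads. Bbs12 ranged from 0.113 to 0.398 and from 0.443 to 0.536 RPKM, on 13 to 61 reads. For the 18 tested cilium genes without a call, the 95% intervals together ran from -0.40 to 0.52. Of these, 14 lay below the log2 of a 25% increase, taken without the added 0.5, and those of Bbs1, Ift88, Bbs2 and Bbs10 reached it. Because the 0.5 shrinks changes of low genes, a 25% increase was not excluded for every 1 of the 14. Tctn2, with a control mean of 3.70 RPKM and an upper bound of 0.32, is a case.

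Levels of the whole sets by library showed the same division. Averaged over the 34 CEP genes, log2(RPKM + 0.5) stood at -0.03, 0.03 and -0.00 relative to the control mean in the controls, and at 0.31, 0.30 and 0.35 in the GSK101 libraries. For the 23 cilium genes these were -0.04, 0.03 and 0.01 in the controls and 0.05, 0.01 and 0.06 with GSK101. The CEP averages of the groups lay far apart, whereas the cilium averages of the groups overlapped. Over all tested genes the GSK101 libraries stood at 0.07, 0.05 and 0.05. Control 1 was the lowest control in 19 of 34 CEP and 12 of 23 cilium genes. Without it, 18 CEP genes were again called higher, all of them shared with the full comparison.

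**Figure D3:**
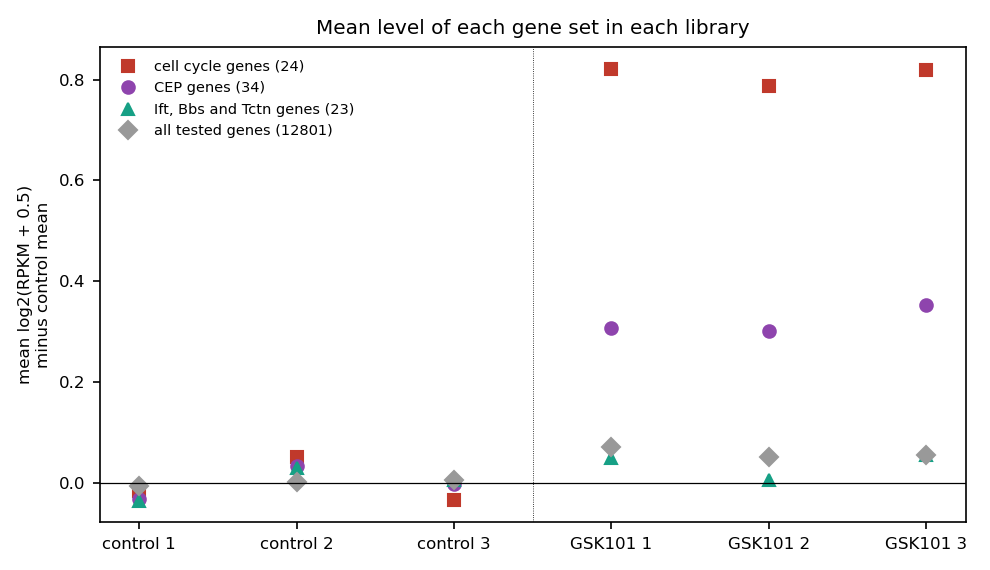
Mean log2(RPKM + 0.5) of the tested CEP, cilium, cell cycle and all genes in each library, minus the mean of the 3 controls. The GSK101 libraries stand at 0.30 to 0.35 for CEP genes, at 0.01 to 0.06 for cilium genes and at 0.79 to 0.82 for cell cycle genes.

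Proliferation genes moved in the same libraries as the CEP genes. All 24 tested genes of a cell cycle list rose, beside 20.1% of all tested genes called higher. Their median log2 change was 0.77, beside 0.03 over all tested genes. Mki67, found in cycling cells, averaged 16.1 ± 0.837 RPKM in the controls and 35.4 ± 0.256 RPKM after GSK101 (SD, n = 3), or 2.21-fold more. Top2a, a topoisomerase of dividing cells, averaged 36.5 ± 3.10 and 83.5 ± 3.59 RPKM, 2.29-fold more. Averaged over the list, the GSK101 libraries stood 0.82, 0.79 and 0.82 above the control mean on the log2 scale. The part of cell cycle genes in the CEP result was not tested.

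Gene length was checked because long genes were called higher more often throughout the table. Tested genes were divided by exonic length into 3 classes of like size: short (35 to 1566 bases), middle (1567 to 2904) and long (2905 to 29464). Over all tested genes, 12.5% of the short, 18.1% of the middle and 29.6% of the long class were called higher. CEP genes were mostly long: 0 of 2 short, 5 of 10 middle and 13 of 22 long CEP genes rose. The 0 covers Cep19 and Cep44, both near 1.0-fold. Of the cilium genes, 0 of 4 short, 2 of 10 middle and 1 of 9 long genes rose. Within the long class the median log2 change was 0.36 for CEP, 0.06 for cilium and 0.10 for all genes. Within the middle class it was 0.26, 0.00 and 0.01. CEP genes that rose had a median length of 4571 bases and those not called 2919 bases, while their median control levels were 4.58 and 4.51 RPKM.

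Across genes, log2 length and log2 change had r = 0.41 and rho = 0.33 over 34 CEP genes and r = 0.33 and rho = 0.37 over 23 cilium genes. Over the 12801 tested genes the values were 0.07 and 0.18. Genes share the same 6 libraries and are not independent, so these are descriptions. When each library's trend with gene length was removed by a smooth curve, 14 CEP genes were called higher in place of 18, and their median log2 change was 0.16 in place of 0.28. Over all tested genes, 15.8% were then called higher and 14.7% lower. Cep192, Cep162, Cep120 and Cep83 lost their calls, 3 of them from the long class, with adjusted p of 0.176, 0.0984, 0.085 and 0.0509. The cilium genes had 3 higher and 2 lower, as before, and a median of -0.02. Over all genes the share of calls that were increases moved from 62.9% to 51.9%. In the long class the CEP median was then 0.20 with 10 of 22 called higher, and that of all long genes -0.01 with 17.4% called higher. Cep55 and Cep72, both of middle length, changed little, from 0.94 to 0.91 and from 0.54 to 0.52.

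**Figure D4:**
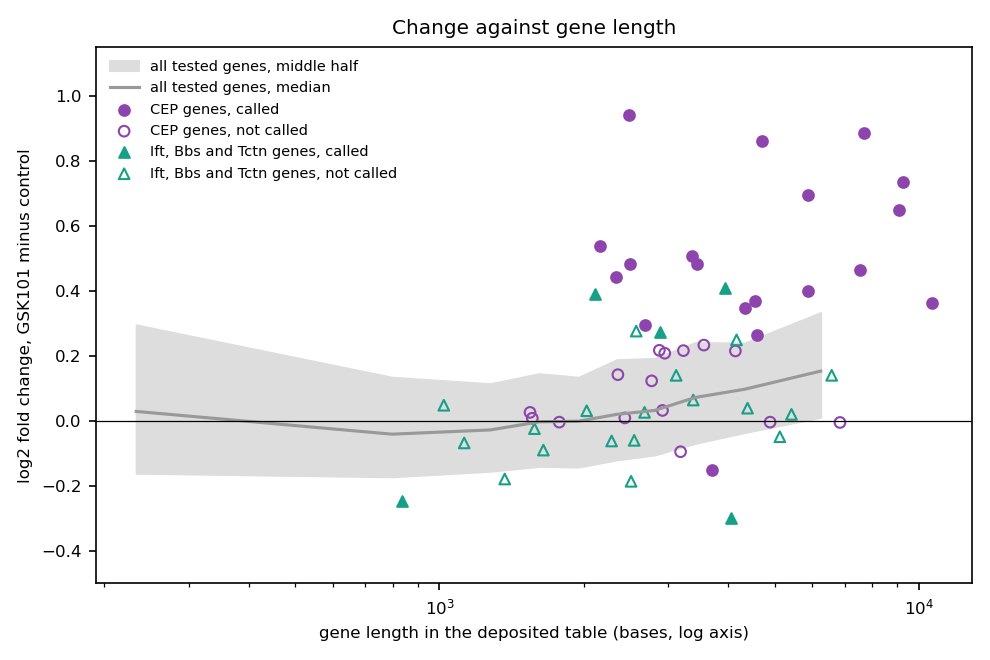
Log2 change against exonic length in bases (log axis) for CEP and cilium members, with a grey line for the median of all tested genes in each of 10 length bins and a band for their quartile range; filled symbols are called genes. CEP points above 0.6 lie mostly among the longer genes, apart from Cep55 at 2491 bases, and cilium points of like length stay nearer the all-gene medians.

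The rest of the centrosome and cilium machinery was followed in lists of genes outside the symbol rule. Of 16 tested centriole duplication genes 10 rose (62.5%), with a median log2 change of 0.41, and Cetn2 fell (6.25%). Of all tested genes, 20.1% were called higher and 11.9% lower. The Cetn2 call was lost in 12 of 17 alternatives, the omission of each single library among them (adjusted p from 0.0545 to 0.143). Plk4, the kinase that triggers centriole copying, was 1.89-fold higher (adjusted p = 0.000369). Aspm, a spindle pole protein, reached 2.25-fold (adjusted p = 0.000137) and Cdk5rap2, which binds the gamma-tubulin complex, 1.55-fold (adjusted p = 0.000287). Of 29 centrosome maturation genes 19 rose (65.5%), beside the same 20.1%, with a median of 0.34. The GSK101 libraries all exceeded the controls for 27, a pattern of 28.5% of all tested genes. The maturation list included Nek2 (1.79-fold), a kinase that loosens the centriole tether, Pcnt (1.78-fold), a pericentriolar scaffold, and Haus6 (1.81-fold) of the augmin complex. With the length trend removed, 15 maturation genes (median 0.23) and 9 duplication genes (median 0.33) were called higher, beside 15.8% of all tested genes.

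Cilium disassembly genes, which share Aurka, Plk1 and Nek2 with the preceding list, had 7 of 11 higher and Nedd9 lower. The Nedd9 call was lost without control replicate 1 (0.0621) or 3 (0.0686), or GSK101 replicate 1 (0.0603) or 3 (0.0728). Kif2c, a microtubule-depolymerising kinesin, was at 1.73-fold and Nde1, which restrains cilium length, at 1.37-fold. These counts stand beside 20.1% of all tested genes called higher.

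IFT subunits and motors under other symbols had 5 of 16 members higher (31.2%), beside 20.1% of all tested genes, with a median log2 change of 0.12. Wdr60, of the retrograde dynein, was at 1.37-fold (adjusted p = 0.0012), Traf3ip1, an IFT-B subunit, at 1.36-fold (0.00103) and Kif3b, of the outward motor, at 1.20-fold (0.00873). The number fell to 3 without control replicate 1 or 2, or without any 1 GSK101 replicate, and to 2 with the length trend removed. Of 9 BBSome partners under other symbols 0 were called by limma, 0 had an unadjusted p under 0.05 and 0 were called with limma-voom. Of all 12801 tested genes, limma called 31.9% in either direction, and limma-voom called 2945 higher and 1644 lower. The most abundant, Rab8a, a GTPase that brings vesicles to the cilium, had 1.08-fold (adjusted p = 0.15), and the chaperonin gene Mkks 0.978 (adjusted p = 0.725).

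Of 20 transition zone and appendage genes, 4 rose (20.0%), beside 20.1% of all tested genes, with a median of 0.05. These were Sclt1 (1.39-fold), a distal appendage gene, Rpgrip1l (1.49-fold), Ahi1 (1.23-fold) and Cc2d2a. The count fell to 2 without any 1 GSK101 replicate: Ahi1 was lost without replicate 2 (0.0542) or 3 (0.0505), Rpgrip1l without replicate 1 (0.0527) and Cc2d2a without any of them (0.0687 to 0.0839). Ciliary membrane genes had 2 of 11 higher (18.2%), led by Rp2 at 1.56-fold, and 2 lower (18.2%), beside 20.1% and 11.9% of all tested genes. Evc2, a hedgehog modulator at the cilium base, was among the lower ones at 0.792 (adjusted p = 0.00196). The ciliary membrane counts dropped to 1 in either direction without control replicate 2 or GSK101 replicate 1 or 2. The lower count also dropped to 1 without control replicate 3. Hedgehog signals pass through the cilium, and 8 of 12 listed genes were tested, with Ptch1, Gli1 and Hhip among those below the filter. Of these 8, 2 rose, 1 fell and 5 did not pass, beside 20.1% of all tested genes called higher and 11.9% lower. Gas1, a hedgehog co-receptor, rose 2.07-fold and Gli3, a pathway transcription factor, 1.55-fold. Smo, the pathway's transducer, fell to 0.829 (adjusted p = 0.03), a call lost without control replicate 1 (0.0797) or 2 (0.0849), or GSK101 replicate 1 (0.0704) or 3 (0.0768).

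**Figure D5:**
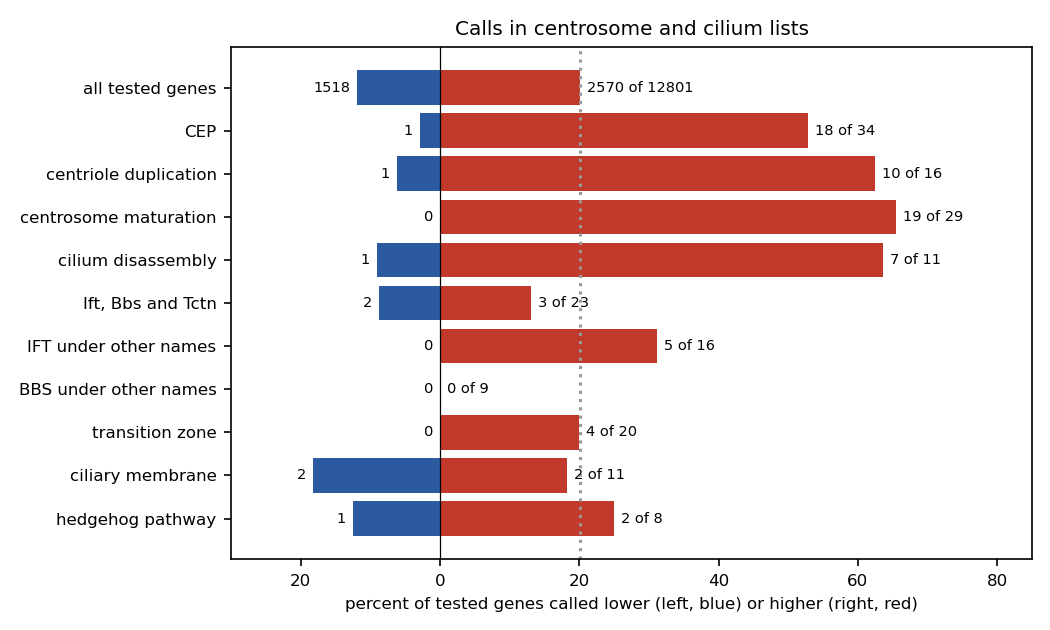
Percent of tested genes called higher (red, right) and lower (blue, left) in each list, with the numbers called and tested beside the bars and a dotted line at the 20.1% of all tested genes called higher. CEP genes stand at 52.9% higher and 2.94% lower, the Ift, Bbs and Tctn genes at 13.0% and 8.70%, and centrosome maturation genes at 65.5% higher.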

How the data were processed

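Libraries of polyadenylated RNA were sequenced from 6 samples, 3 per group. The authors deposited RPKM per gene with exon coordinates and length. Tools listed in the submitters' processing notes, in no stated order, are edgeR 3.12.1, featureCounts (Subread 1.5.1 is listed too), the aligner STAR 2.5.3a and Trimmomatic 0.36; the build is Rnor_6.0. All value columns matched a sample title. Use of strand and of molecular identifiers in counting is not stated, and either could shift overlapping or PCR-amplified genes. RPKM times length gave whole multiples of 1 read for 100% of values, within 0.01 read.

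Groups were compared with limma 3.58.1 (R 4.3.3) on log2(RPKM + 0.5) with a variance trend, for genes of at least 0.5 RPKM in at least 3 libraries. This scale understates changes of low genes, so ratios of mean RPKM are given. Benjamini-Hochberg adjustment ran over all 12801 genes, and all adjusted p-values are limma's. The script was tested on simulated data. The members and lists were chosen with earlier results of these data known. Per-library values are given for the 8 largest called CEP changes, the CEP genes called lower, the 4 highest and 4 lowest cilium changes, the most abundant member of each set and 9 chosen genes, of which Cep152 was not analysed here. Other called members have ratios only, and Cep126 was added after its values were seen. Up to 3 genes with the smallest adjusted p stand for each context list, besides genes that fell or complete a small count. The 17 alternatives covered pseudocounts, filters, scalings, a length correction (loess, span 0.3), variance models, a replicate block and omission of each library. Promoters came from RefSeq (GRCr8). The single values of 1 CEP gene are not reported here.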

Additional observations from a re-analysis of the deposited data

How the results depend on the processing

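Of the 18 CEP genes called higher, 14 kept the call in all 17 alternatives, and the count ran from 14 to 19. The count of CEP genes called lower was 0 with TPM scaling, without the variance trend and with the replicate block, and 0 to 1 with 1 library left out. The CEP median log2 change was 0.33 with a pseudocount of 0.1, 0.32 with a filter of 1 RPKM, 0.22 after quantile normalization, 0.16 with the length trend removed and 0.34 with limma-voom. The cilium count called higher ran from 1 to 3 with 1 library left out, and was 1 without GSK101 replicate 3; the count called lower was 1 without the filter, with TPM scaling, with the replicate block and with any 1 library left out. The cilium median was 0.02 with a pseudocount of 1, 0.054 with TPM, -0.008 with median-ratio scaling, -0.045 after quantile normalization and -0.024 with the length trend removed, and 0.007 to 0.037 with 1 library left out. Ift140, close to 0 throughout, changed sign with median-ratio scaling (-0.016), quantile normalization (-0.058), the length trend removed (-0.11), and without control replicate 3 (-0.004) or GSK101 replicate 1 (-0.007) or 2 (-0.006); with 1 library left out it ran from -0.007 to 0.072. Increases were 62.9% of all calls, but 72.5% with TPM, 52.7% with median-ratio scaling, 48.1% after quantile normalization and 51.9% with the length trend removed. Samples sharing a replicate number had residual correlations of 0.05, -0.06 and 0.05, and the other pairs from -0.15 to 0.11. These values cannot show whether samples were paired, and the main comparison treated them as unpaired. With the replicate block, 18 CEP genes were higher and 0 lower, and 3 cilium genes higher and 1 lower. The causes of these shifts were not tested. Low read numbers limit Tctn3 and Bbs12.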
